A study of Mus musculus with 34 samples.

Results

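The 81 mouse genes described here encode the chains of collagens, laminins and integrins. They were chosen by gene symbol among the 25124 transcripts, 1 for each gene, that the deposited tables list. They comprise 44 collagen chains, 11 laminin chains and 26 integrin chains. By structure, 11 of the collagen chains form fibrils, 11 form networks or basement membranes and 22 belong to other types, and the integrins divide into 18 alpha and 8 beta chains. The series asks how the glucocorticoid receptor (GR) assembles into oligomers, and its RNA-seq used C127l, a mouse cell line that the labels call adenocarcinoma cells. In every group the endogenous receptor had been knocked out (GRKO) and a GFP-tagged mouse GR put in its place. That receptor was wild type (WT) or carried P631A, W718E, P643A or the pair W718S/Y722S. Each of the 5 lines was given vehicle or 100 nM dexamethasone (Dex), a synthetic glucocorticoid, for 2 h, after 24 h in medium with charcoal-stripped serum. There were 3 libraries per group in 4 lines and 5 per group in W718S/Y722S, which makes 34 libraries in 10 groups. The labels do not say whether replicates were separate cultures, and the p-values rest on the scatter among libraries, whatever its source, technical ones included. They do not say either whether a line was 1 clone or how the transgene was driven, so a substitution cannot be told apart from other properties of its line.

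Collagens are the main structural proteins of the extracellular matrix. Fibrillar types I, III and V form tensile fibres, while type IV builds the mesh of basement membranes together with laminins, which are trimers of an alpha, a beta and a gamma chain. Integrins are receptors of 1 alpha and 1 beta chain that bind these proteins outside the cell and couple to the actin cytoskeleton inside it. GR is a transcription factor that enters the nucleus when it binds a glucocorticoid, and glucocorticoids are known for lowering collagen synthesis in skin and fibroblasts over longer exposure.

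Sequencing depth was 24.0 to 43.1 M total reads per library, of which 16.5 to 31.5 M were counted in exons. The receptor responded in every line. Sgk1, a kinase gene that GR activates, rose with Dex by 3.94 on the log2 scale in WT, by 1.89 in P643A, 1.57 in W718S/Y722S, 1.41 in W718E and 1.08 in P631A. Its vehicle mean, normalised within each line, was 934 reads in WT and 1425 to 2866 in the mutant lines. These changes thus start from unlike levels, and 1 gene does not give the size of a line's whole response. Vim, a mesenchymal intermediate filament gene, had 57705 to 80435 normalised reads in the vehicle libraries. The epithelial markers stood far lower, with Krt8 at 13.9 to 48.9 and Epcam at no more than 1.17 in the same libraries, in cells labelled as adenocarcinoma. Krt14 ranged from a mean of 5.17 in the lowest line to 1608 in the highest. Nr3c1, the gene of GR itself, had vehicle means of 5300 to 7453 reads, in which transgene and locus cannot be told apart, so the knockout was not checked by it. Some libraries stood apart from their group. The chi-square per gene between 2 libraries, which is 1 for sampling noise alone, was 5.57 to 5.86 between WT Dex replicate 1 and the other two WT Dex libraries, but 1.34 between those. In W718S/Y722S it was 9.95 to 12.5 between Dex replicate 1 and the other Dex libraries, against 1.3 to 3.26 among those. In P631A it was 7.03 to 10.9 for Dex replicate 1 and 2.85 between the other two.

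In WT cells given vehicle, the most abundant chain per kb of transcript was Col1a2, the alpha 2 chain of type I collagen, at 13241 normalised reads per kb. The levels in this paragraph were normalised over all 34 libraries together. Among fibrillar chains Col5a2 and Col5a1, both of type V collagen, followed at 4603 and 1172. Col1a1, the partner chain of Col1a2 in type I collagen, stood at only 29.2 reads per kb. Col1a2 therefore exceeded Col1a1 by 419- to 500-fold in the 3 WT vehicle libraries, and the mean ratio was 351 to 462 in the other lines. The type IV pair was closer to balance, with Col4a1 at 4144 and Col4a2 at 1889 reads per kb. Their ratio was 2.19 in WT and lay between 2.06 and 2.22 across the line means. Col18a1, a basement membrane collagen, stood at 2201, Col4a5 at 1722 and Col4a6 at 1209. The chains of the filament-forming type VI collagen, Col6a1, Col6a3 and Col6a2, stood at 1966, 824 and 710 reads per kb.

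Among laminins, Lamc1 (1415 reads per kb) and Lamb2 (1129) led, and Lama5 (537) was the abundant alpha chain. Lama1, Lama2 and Lama4 each stood under 1 read per kb. Lamb3 stood at 263. Among integrins, Itgb1, the beta chain shared by most matrix receptors, stood at 4842 and Itgb5, a partner of alpha v, at 2920. Itga3, which pairs with Itgb1 as a laminin receptor, stood at 2260, Itgav at 1004, the laminin receptor chain Itga6 at 644 and the fibronectin receptor chain Itga5 at 627. Itga10, the alpha chain of a collagen receptor, stood at 8.19 reads per kb. Of the 81 members, 43 were high enough to test in all 5 lines, 8 in some lines and 30 in none. A gene was tested in a line where the unlogged deposited value was 10 or more in a number of libraries no lower than the size of the smaller group. The 30 untested members (18 collagens, 4 laminins and 8 integrins) had at most 16 reads in any library, and each had a read in at least 1 library. A gene that passed only because it was high in 1 group had to differ, so counts below are of tested members and not of all members.

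**Figure D1:**
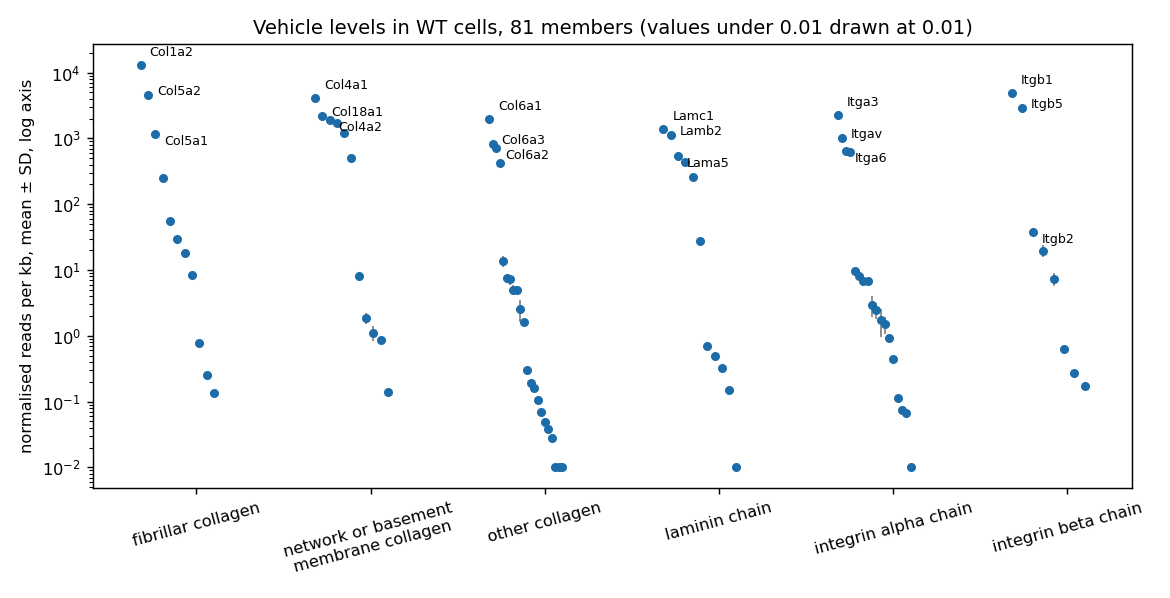
Normalised reads per kb of each of the 81 members in WT vehicle libraries (log axis), by structural group, as means with SD bars where the mean is at least 1 (n = 3). The top 3 genes of each group are labelled: Col1a2 leads at 13241, and most members of the group of other collagens lie far below Col6a1 at 1966.

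Dex changed few members within 2 h, and the ones that rose were integrin alpha chains. In WT, 2 of 49 tested members passed an adjusted p of 0.05 and both rose (Itga10 and Itga5), against 6.7% of all tested genes (3.96% higher and 2.74% lower). P631A had 1 of 49 (Itga10), where 0.221% of all genes passed (0.197% higher and 0.0236% lower). W718E had 0 of 46, where 0.524% of all genes passed (0.476% higher and 0.0476% lower), and 2 of the 46 had an unadjusted p under 0.05 by limma. In the authors' deposited table, Itga10 in W718E had an adjusted p of 0.0423. With same-numbered libraries fitted as pairs (a replicate block), Itga10 and Itga5 were called in W718E, and 288 in place of 66 of all genes passed. P643A had 3 of 45 (Itga10 and Itga5 higher, Itga3 lower), where 4.78% passed (2.63% higher and 2.15% lower). W718S/Y722S had 2 of 44 (Itga10 and Itga5, both higher), where 4.79% passed (2.55% higher and 2.24% lower). These shares are near the background in WT, P643A and W718S/Y722S. No collagen or laminin chain passed limma's test on the deposited values in any line with all libraries in. In W718S/Y722S, Col18a1 was lower with an adjusted p of 0.044 in the authors' deposited table, and was called by limma without a variance trend (adjusted p = 0.039). Levels from here to the vehicle comparison are read counts normalised within each line's table, and changes are log2 differences of those counts plus 1. The adjusted p is limma's, within a line on the deposited log2 values.

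Itga10 encodes the alpha 10 chain, which pairs with beta 1 as a collagen receptor and is best known from cartilage. Its normalised count in WT was 45.0, 41.6 and 43.1 with vehicle and 296, 269 and 286 with Dex. The change was 6.56-fold, a log2 change of 2.69 ± 0.11 (SE, n = 3 per group; limma adjusted p = 2.11e-12), and every Dex library lay above every vehicle library. In P643A the vehicle libraries had 27.7, 45.6 and 43.4 and the Dex libraries 196, 176 and 170. This was a 4.65-fold rise (log2 2.22 ± 0.15, SE; limma adjusted p = 4.72e-12), again with no overlap. In W718S/Y722S vehicle gave 41.6, 33.5, 47.3, 30.2 and 35.8, and Dex gave 88.0, 96.6, 92.6, 94.6 and 102. The rise was 2.51-fold (log2 1.32 ± 0.12, SE, n = 5 per group; limma adjusted p = 2.90e-07).

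P631A had 46.7, 56.0 and 34.5 with vehicle and 98.4, 89.4 and 112 with Dex, a 2.19-fold rise (log2 1.13 ± 0.18, SE; limma adjusted p = 0.0168). That call was lost without vehicle replicate 3 or without Dex replicate 3, with limma's adjusted p reaching 0.166. It was also lost without a variance trend (limma adjusted p = 0.371). In W718E the vehicle libraries had 65.0, 56.6 and 118 and the Dex libraries 152, 112 and 170, so vehicle replicate 3 overlapped the Dex group. The log2 change of 0.90 ± 0.24 (SE) was not called (limma adjusted p = 0.273). Without vehicle replicate 3 it was 1.22 and called (limma adjusted p = 0.0201). Set side by side, from tables that were normalised separately, the Dex libraries lay at 269 to 296 in WT and at 170 to 196 in P643A. In W718E they lay at 112 to 170, in P631A at 89.4 to 112 and in W718S/Y722S at 88.0 to 102. Neighbouring ranges below WT overlapped or touched: P643A with W718E, W718E with P631A, and P631A with W718S/Y722S.

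Itga10 lies on chromosome 3 of mm10 at 96645584 to 96664519 on the plus strand, and the counted transcript NM_001302471 has 5009 bases. Itga5 lies on chromosome 15 at 103344286 to 103366791 on the minus strand, and its transcript NM_010577 has 4378 bases. The 250 bases before each start, in RefSeq's GRCm38.p6, are shown because these were the members that rose in more than 1 line. They are in lower case throughout because no searched motif was found in them.
Itga10, chr3:96645334-96645583, + strand: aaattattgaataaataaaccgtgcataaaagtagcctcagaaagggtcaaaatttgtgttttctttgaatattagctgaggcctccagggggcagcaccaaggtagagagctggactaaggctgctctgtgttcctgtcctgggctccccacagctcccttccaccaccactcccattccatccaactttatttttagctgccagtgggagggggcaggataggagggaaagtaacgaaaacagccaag
Itga5, chr15:103366792-103367041, - strand: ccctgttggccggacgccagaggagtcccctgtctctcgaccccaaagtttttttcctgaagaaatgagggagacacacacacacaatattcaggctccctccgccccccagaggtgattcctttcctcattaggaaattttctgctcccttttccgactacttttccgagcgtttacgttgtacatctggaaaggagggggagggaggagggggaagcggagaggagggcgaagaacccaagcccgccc
The motifs searched, on both strands, were the GR half-site AGAACA, the core ACANNNTGT and a longer consensus of the full glucocorticoid response element, whose matches also hold a match to the core. Of 32851 RefSeq windows of this length, 16.08% held AGAACA, 5.835% held ACANNNTGT and 0.3866% held the full element. RefSeq windows were matched for 58 of the 81 members, 64 windows in all, of which 7 held AGAACA, 2 held ACANNNTGT and 0 held the full element.

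Itga5 encodes the alpha 5 chain, which with beta 1 forms the main fibronectin receptor. Its level was much higher than that of Itga10 and its change smaller. WT had 2838, 2975 and 2858 normalised reads with vehicle and 3456, 3243 and 3370 with Dex, a rise of 16.1% (log2 0.22 ± 0.03, SE; limma adjusted p = 0.000134). The groups did not overlap. P643A went from 2999, 2939 and 2949 to 4190, 3920 and 4089, a rise of 37.3% (log2 0.46 ± 0.03, SE; limma adjusted p = 4.27e-12). W718S/Y722S had 2161, 2128, 2021, 1956 and 2257 with vehicle and 2471, 2652, 2560, 2593 and 2542 with Dex, a rise of 21.8% (log2 0.29 ± 0.04, SE; limma adjusted p = 4.41e-05). In these 3 lines each call held when any 1 library was left out. W718E had 2625, 2588 and 2731 with vehicle and 2857, 2945 and 3060 with Dex. Its groups did not overlap either, but the log2 change of 0.16 ± 0.04 (SE) was not called (limma adjusted p = 0.187). P631A had 2947, 3010 and 2912 with vehicle and 3151, 3044 and 2959 with Dex, which overlap (log2 0.05, limma adjusted p = 0.936).

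Itga3, the laminin receptor chain, was called lower in P643A, from 12354, 12874 and 12481 to 11765, 11470 and 11944 normalised reads. The log2 change was -0.10 ± 0.03 (SE; limma adjusted p = 0.0219). The call was lost on leaving out vehicle replicate 2, vehicle replicate 3, Dex replicate 1 or Dex replicate 2, each in turn, with limma's adjusted p up to 0.121. It was lost without a variance trend too (limma adjusted p = 0.0683).

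**Figure D2:**
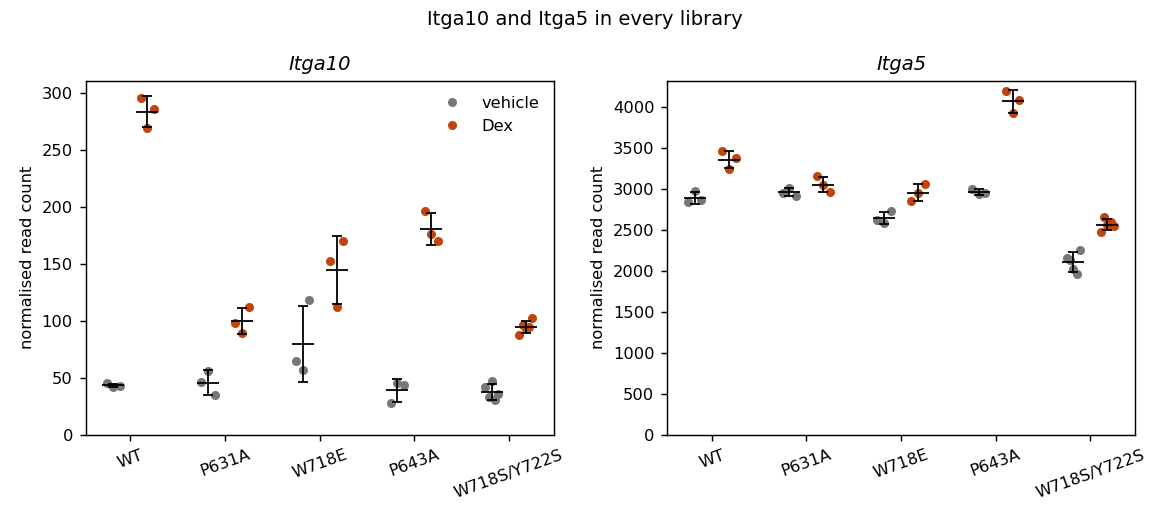
Normalised read count of Itga10 (left) and Itga5 (right) in each library of the 5 lines with vehicle or Dex; points are libraries and axes start at 0. WT Dex libraries reach 269 to 296 for Itga10, while Itga5 is highest in P643A with Dex at 3920 to 4190.

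The size of the response was then compared between each mutant line and WT. All 4 of these comparisons use the same WT libraries and so are not independent. Itga10 responded less in P631A (difference in log2 change -1.55 ± 0.21, SE; limma adjusted p = 0.000107), W718E (-1.78 ± 0.28; 0.000709) and W718S/Y722S (-1.36 ± 0.17; 2.58e-05). No omission of 1 library ended any of these 3 calls. In P643A the difference was -0.47 ± 0.20 (SE), with a 95% interval of -0.88 to -0.05, and was not called (limma adjusted p = 0.445). It was called without P643A vehicle replicate 1 (limma adjusted p = 0.022). It was also called on the deposited log2 values, where low counts are shrunken (difference -0.20, limma adjusted p = 1.29e-08). Itga5 responded more in P643A than in WT, by 0.24 ± 0.04 on the log2 scale (SE; limma adjusted p = 0.00206), and this call held in all 12 omissions. Its difference from WT was -0.17 in P631A (limma adjusted p = 0.124, and 0.0424 without P631A Dex replicate 1), -0.06 in W718E (0.863) and 0.07 in W718S/Y722S (0.681). Each mutant line had 1 called member, of 51 tested in P631A and 49 in each other line. Over all genes 1.98% differed in P631A, 1.8% in W718E, 1.74% in W718S/Y722S and 1.58% in P643A, so these counts are near the background. No collagen or laminin differed in its response from WT with all libraries in. Without P631A Dex replicate 1, the Dex response of Col5a1 in P631A was called higher than in WT (limma adjusted p = 0.000803).

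The other tested members moved little. Among uncalled members with a mean of at least 1000 normalised reads, the log2 changes ran from -0.11 (Col5a1) to 0.10 (Lamc1) for 24 genes in WT. In P631A they ran from -0.11 (Col4a5) to 0.21 (Col5a1) and in W718E from -0.08 (Lamb1) to 0.16 (Itga5). In P643A they ran from -0.08 (Lamb1) to 0.10 (Col6a1) and in W718S/Y722S from -0.18 (Col6a2) to 0.14 (Col6a3). The bound of a 95% interval farthest from 0 among these genes was a change of 1.14-fold in WT, 1.15-fold in P643A, 1.24-fold in W718E, 1.26-fold in W718S/Y722S and 1.29-fold in P631A. These bounds hold for uncalled members, so they do not cover Itga5 in the lines where it was called, or Itga3 in P643A. The median log2 change of tested members was 0.01 in WT and -0.04 in W718S/Y722S, beside medians of about 0.00 over all tested genes. In P631A, W718E and P643A the median over members was 0.00, -0.02 and -0.02.

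Among low members the intervals were wide. Col9a3, a chain of the fibril-associated type IX collagen, had 23.4, 16.6 and 23.8 normalised reads with vehicle in WT and 13.4, 12.6 and 14.2 with Dex. The groups did not overlap, but the log2 change of -0.61 ± 0.26 (SE) was not called (limma adjusted p = 0.207). The next largest uncalled changes in WT were 0.43 for Col23a1 and 0.36 for Itga2, a collagen receptor chain, with overlapping groups at means under 20 reads. Col17a1 and Itgb4, both parts of hemidesmosomes, had log2 changes of 0.31 and -0.31, also with overlapping groups.

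How many collagens were called depended on single libraries. Without WT Dex replicate 1, the library that stood apart, 10 members were called in WT (3 higher and 7 lower), where 9.79% of all genes passed. Itgb5 joined Itga10 and Itga5 among the higher ones (log2 change 0.10, limma adjusted p = 0.00707). The lower ones were the fibrillar chains Col5a1 (-0.15) and Col1a2 (-0.07), the fibril-associated Col16a1 (-0.10), the network or basement membrane chains Col8a1 (-0.11) and Col18a1 (-0.08), Col6a3 (-0.11) and the laminin chain Lama5 (-0.10). Their adjusted p by limma was between 0.000704 and 0.0483. The Dex libraries left had a chi-square per gene of 1.34 between them, against 2.69 to 3.33 among the WT vehicle libraries. These calls came with a small Dex scatter and with log2 changes that also moved, and calls over all genes rose from 846 to 1236. The part of each in the calls was not tested. Lama5 had 6497, 6146 and 6561 normalised reads with vehicle and 7479, 5914 and 6063 with Dex, so replicate 1 was the highest of all 6 and the other two Dex libraries the lowest. Col6a3 had 9665, 8568 and 9880 with vehicle and 11513, 8654 and 8672 with Dex. With all libraries the log2 changes of Lama5 and Col6a3 were 0.01 and 0.03, so leaving out this library reversed their sign.

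W718S/Y722S showed a like pattern. Without its Dex replicate 1, 9 members were called (2 higher and 7 lower), where 7.81% of all genes passed. The lower ones were Col1a2 (log2 change -0.14), Col5a1 (-0.14), Itga3 (-0.12), Lamb2 (-0.09), Col18a1 (-0.08), Col6a1 (-0.08) and Col9a3, with limma's adjusted p from 0.00274 to 0.0459. The chi-square per gene among the Dex libraries left was 1.3 to 3.26, against 1.32 to 5.26 among the vehicle libraries of this line. Col9a3 had 9.45 to 18.5 normalised reads with vehicle and 3.65 to 8.70 in Dex replicates 2 to 5. Col1a2 had 39092, 35420, 35179, 34747 and 37890 normalised reads with vehicle and 33508, 33760, 32737 and 32311 in Dex replicates 2 to 5, while Dex replicate 1 had 41506. Col18a1, Col1a2 and Col5a1 were called lower in both lines in this way. The same library had 448 reads of Tns1 and 51.7 of Lims2, genes described below, which lay near the vehicle range of 384 to 434 and inside that of 48.9 to 67.1. Its Itga10 count of 88.0 and Itga5 count of 2471 lay above every vehicle library. In P631A, leaving out Dex replicate 1 added Col5a1 as higher (log2 0.30, limma adjusted p = 0.011), where 0.386% of all genes passed. What set these libraries apart was not tested.

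**Figure D3:**
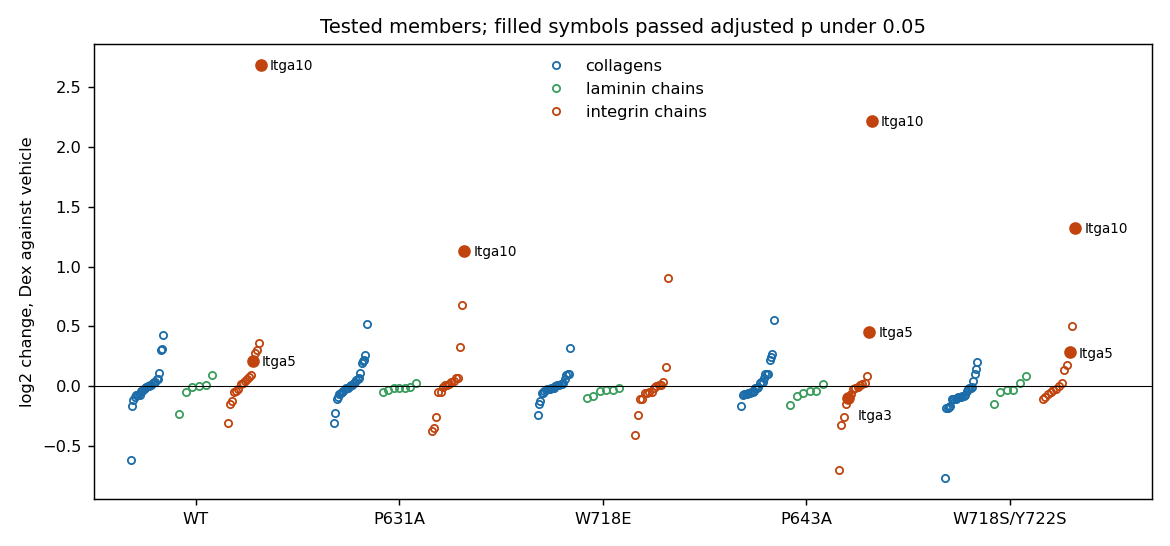
Log2 change with Dex of every tested member in each line (44 to 49 genes), coloured by structural group; filled symbols passed limma's adjusted p of 0.05. Itga10 stands far above the rest at 2.69 in WT and 2.22 in P643A, and the collagens and laminins lie mostly within a narrow band around 0.

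Genes that work with these chains were followed through 3 lists of 30 genes. The lists were chosen with earlier results of these data known. A count above the share of all genes is therefore no test of a list. Of the 31 within-line calls in the lists, 16 held under every omission of 1 library and 15 were lost under at least 1. Focal adhesion adaptors, which link integrins to actin, held most of the calls. In WT, 7 of 29 tested adaptors rose and 1 fell, where 6.7% of all genes passed. The largest rises were in Tns1, encoding tensin 1, by 1.12 on the log2 scale, and in Lims2, encoding the adaptor PINCH2, by 1.08. Zyx (zyxin) rose by 0.25, Tns3 (tensin 3) by 0.20 and Lims1 by 0.13, the last lost without WT vehicle replicate 1. Nedd9, a scaffold of the Cas family, fell by 0.18.

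Tns1 had 1773, 1543 and 1732 normalised reads with vehicle and 4010, 3429 and 3516 with Dex in WT. Lims2 had 44.1, 41.6 and 43.1 with vehicle and 98.6, 83.5 and 94.7 with Dex there, with no overlap for either gene. In P643A, 4 of 28 adaptors rose, where 4.78% of all genes passed. All 4 calls held under every omission: Lims2 by 2.09, Tns1 by 1.33, Pxn (paxillin) by 0.22 and Zyx by 0.21. In W718S/Y722S, 5 of 28 rose and 2 fell, where 4.79% of all genes passed. The rises were led by Lims2 by 1.03 and Tns1 by 0.56. Nedd9 fell by 0.24 and Ptk2b, a kinase related to focal adhesion kinase, by 0.14. Nedd9 lost its call in that line in 4 of 10 omissions and Ptk2b in 8 of 10. No adaptor was called in P631A (0 of 28) or W718E (0 of 28), where 0.221% and 0.524% of all genes passed. Tns1 was called higher in P631A without Dex replicate 1 (limma adjusted p = 0.011) and in W718E without vehicle replicate 3 (limma adjusted p = 0.00547). The Dex response of Tns1 was smaller in W718S/Y722S than in WT by a log2 difference of -0.56 (limma adjusted p = 0.0242, lost in 6 of 16 omissions). That of Lims2 was larger in P643A by 1.01 (limma adjusted p = 0.0216, lost in 4 of 12), where its vehicle level was 10.9 reads against 43.0 in WT. It was lost with a pseudocount of 5 (limma adjusted p = 0.0612) and without a filter (0.0863). On the deposited values it was -0.03 and not called (limma adjusted p = 0.11). For Tns1 the difference from WT was -0.78 in P631A (limma adjusted p = 0.145) and -0.72 in W718E (0.0755), neither called. On the deposited values both were called (-0.59, limma adjusted p = 0.00163, and -0.58, 0.000163), and W718E was called without its vehicle replicate 2, vehicle replicate 3 or Dex replicate 3 (limma adjusted p = 0.01, 0.0226 and 0.038).

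Matrix partners, the list of fibronectin, perlecan, nidogens and other proteins that lie beside collagens and laminins, held fewer calls. WT had 1 of 18 tested, where 6.7% of all genes passed. It was the laminin-binding Tinagl1, which fell by 0.11 (lost in 3 of 6 omissions). P643A had 4 of 19, where 4.78% of all genes passed, and the call that held in every omission was Hspg2 (perlecan), which fell by 0.20. Hspg2 had an adjusted p of 0.0905 in the authors' deposited table, and the call was lost without a variance trend (limma adjusted p = 0.135). Fn1 (fibronectin) fell there by 0.12, while Ecm1 rose by 0.19 and Spp1 (osteopontin) by 0.13, each lost in 3 of 6 omissions. W718S/Y722S had 2 of 16, where 4.79% of all genes passed. Emilin1 was lower by 0.18, a call kept in every omission, and Agrn (agrin) by 0.17, a call lost in 6 of 10. Among 26 tested genes of collagen processing, Lox, which encodes lysyl oxidase and cross-links collagen, rose in WT from 11908 ± 89 to 14306 ± 108 normalised reads (SD, n = 3; log2 0.26, limma adjusted p = 4.13e-07). Its response was smaller in P643A by 0.20 on the log2 scale (difference -0.20, limma adjusted p = 0.000739). It was also smaller in P631A (difference -0.24, limma adjusted p = 0.0439), a call lost in 10 of 12 omissions and without a filter. Lox rose in W718S/Y722S by 0.14, a call lost in 8 of 10 omissions. Collagen processing had 2 of 26 called in WT, 1 in P643A and 2 in W718S/Y722S, beside the same shares of all genes. P631A and W718E had no call in either list, where 0.221% and 0.524% of all genes passed.

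**Figure D4:**
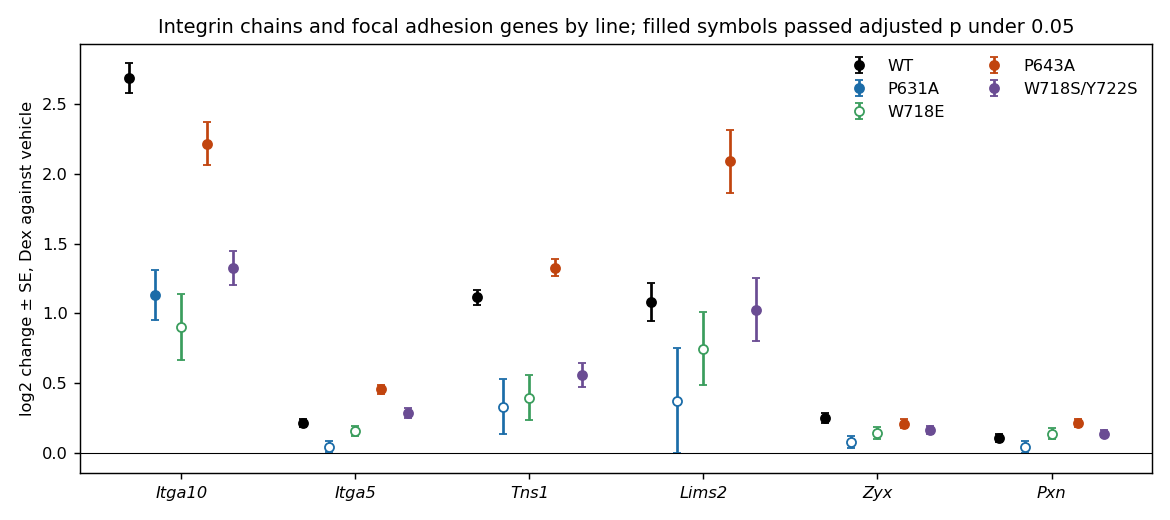
Log2 change with Dex (± SE) of Itga10, Itga5 and 4 focal adhesion adaptor genes in the 5 lines; filled symbols passed limma's adjusted p of 0.05. Tns1 and Lims2 reach 1.12 and 1.08 in WT and 1.33 and 2.09 in P643A, next to 2.69 and 2.22 for Itga10.

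Genes within 50 kb of Itga10 were also read. Pias3, a SUMO ligase gene that starts 31855 bases beyond the end of Itga10, rose by 0.52 in WT, 0.37 in P643A and 0.32 in W718S/Y722S. Lix1l rose by 0.16 in P643A. Rbm8a, Polr3c, Nudt17 and 6330549D23Rik passed in no line. Around Itga5, the 2 tested neighbours Zfp385a and Copz1 passed in no line.

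The lines also differed in their vehicle levels. A member was called apart from WT when the vehicle libraries did not overlap and the means, normalised over all 34 libraries together, differed at least 2-fold. No test was made, because the lines' tables were normalised separately. Line and substitution cannot be told apart in these levels either. P631A had 7 of 50 compared members apart (2 higher, 5 lower), where 8.13% of all genes were (4.22% higher, 3.91% lower). W718E had 8 of 48 (3 higher, 5 lower), where 10.5% were (5.51% higher, 5.02% lower). P643A had 8 of 48 (1 higher, 7 lower), where 13% were (6.15% higher, 6.9% lower). W718S/Y722S had 13 of 48 (2 higher, 11 lower), where 12.2% were (6.18% higher, 6.01% lower). The median member stood at 82.6% of WT in P631A, 83.1% in P643A, 84.6% in W718S/Y722S and 88.1% in W718E, while the median over all genes was between 98.9% and 100% in each line. In bulk RNA, fewer cells of a type and less RNA per cell cannot be told apart. Rn45s, the ribosomal precursor RNA, took 9.95% to 11.3% of exon counts in WT and 13.8% to 18.3% in the mutant lines. The summed level of 12 epithelial markers was 90.7 to 133 in WT and 1556 to 1832 in W718S/Y722S, most of it Krt14, while 5 of the 12 averaged under 1 read in each line. The part of either in the vehicle differences was not tested.

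Col4a5 and Col4a6, type IV chains that occur together in some basement membranes, were lower in all 4 mutant lines. Col4a5 had 10701, 11307 and 11253 as its lowest, highest and median count in WT. Its mean stood at 46.4% of WT in W718E, 44.7% in P631A, 41.3% in P643A and 33.8% in W718S/Y722S. Col4a6 had 7812, 8070 and 8063 in WT in the same order. It stood at 43.9%, 38.4%, 38.1% and 26.4% of WT in P631A, W718E, P643A and W718S/Y722S. No mutant library reached the WT range for either gene. The genes lie head to head on the X chromosome, Col4a6 at 141165403 to 141474076 on the minus strand and Col4a5 at 141475419 to 141689235 on the plus strand. The 250 bases before each start are given because the chains moved together, and neither holds a searched motif.
Col4a5, chrX:141475169-141475418, + strand: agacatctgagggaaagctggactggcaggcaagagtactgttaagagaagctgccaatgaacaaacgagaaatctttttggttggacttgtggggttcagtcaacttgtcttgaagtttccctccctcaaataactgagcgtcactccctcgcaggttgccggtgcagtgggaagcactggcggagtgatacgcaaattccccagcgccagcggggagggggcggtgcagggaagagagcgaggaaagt
Col4a6, chrX:141474077-141474326, - strand: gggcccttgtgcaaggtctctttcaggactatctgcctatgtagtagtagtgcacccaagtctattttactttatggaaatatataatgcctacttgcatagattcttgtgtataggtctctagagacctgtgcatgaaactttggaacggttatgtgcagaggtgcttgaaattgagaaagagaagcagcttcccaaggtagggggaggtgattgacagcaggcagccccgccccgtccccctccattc
The other type IV pair was below WT in 3 of the 4 lines, short of the 2-fold limit, and above it in W718S/Y722S. Col4a1 stood at 52.8%, 70.6%, 54.7% and 121% of WT in P631A, W718E, P643A and W718S/Y722S, and Col4a2 at 52.5%, 75.1%, 56.4% and 120%.

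Itgb7, a beta chain known from leukocyte integrins, was the member higher in all 4 mutant lines. Its 3 WT vehicle libraries had between 16.2 and 24.5 normalised reads. The means were 55.8 ± 10.6 in P631A, 102 ± 23.7 in W718E, 80.9 ± 15.6 in P643A (SD, n = 3) and 94.0 ± 11.8 in W718S/Y722S (SD, n = 5). The general leukocyte marker Ptprc had at most 5.80 reads in any vehicle library. Of the other immune markers, Adgre1 had at most 1.78 reads, but Cd68 had 106 to 253. Col12a1, a fibril-associated collagen, had 86.8 ± 9.0 reads in WT, 185 ± 19.4 in W718E (SD, n = 3) and 400 ± 21.4 in W718S/Y722S (SD, n = 5).

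In W718S/Y722S, 4 of the 8 compared fibrillar chains were apart from WT, all of them lower, where 12.2% of all genes were apart (6.01% lower). The same count was 1 of 8 in P631A and 0 of 8 in W718E and P643A. In W718S/Y722S, Col5a2 stood at 28.0% of WT, Col5a1 at 43.8%, Col3a1 at 40.4% and Col11a1 at 23.2%. Col5a2 was also lower in P631A, at 45.2%. Col8a1, a network collagen, stood at 28.3% of WT in W718S/Y722S and Col18a1 at 48.2%. Col1a2 was less far from WT, at 63.9%, and stood at 108% in P631A, 104% in W718E and 92.6% in P643A. Itgb5 was lower in W718E (39.0% of WT) and W718S/Y722S (33.3%), and Lamb2 in W718E (48.1%).

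The integrin alpha chains that rose with Dex were not called apart from WT in vehicle in any line. Itga5 stood between 91.9% and 97.4% of WT in all 4 mutant lines. Itga10 stood at 99.7% of WT in P631A, 85.4% in P643A, 110% in W718S/Y722S and 187% in W718E, where the libraries ranged from 54.2 to 113 and did not overlap WT at 39.6 to 42.5. Itgb1, their partner, stood at 65.0% to 70.3% of WT in the mutant lines. Per kb, Itga5 therefore amounted to 12.5% to 13.3% of Itgb1 in WT vehicle libraries and to 17.2% to 19.3% in the mutant lines. Itga1 and Itga8 were called lower in 3 lines each, but both had means under 20 reads in WT. Leaving out 1 library ended the call for Itga8 in P631A, W718E and P643A (without WT vehicle replicate 1). It ended the call for Itga1 in P631A and P643A (without WT vehicle replicate 1 or the line's own vehicle replicate 1) and for Col9a3 in P643A (without P643A vehicle replicate 3). Omissions also added Itga10 in W718E, where the call appeared without vehicle replicate 1 or 2 of that line. The counted transcript of Itga8 differed in W718S/Y722S, so no comparison was made there.

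**Figure D5:**
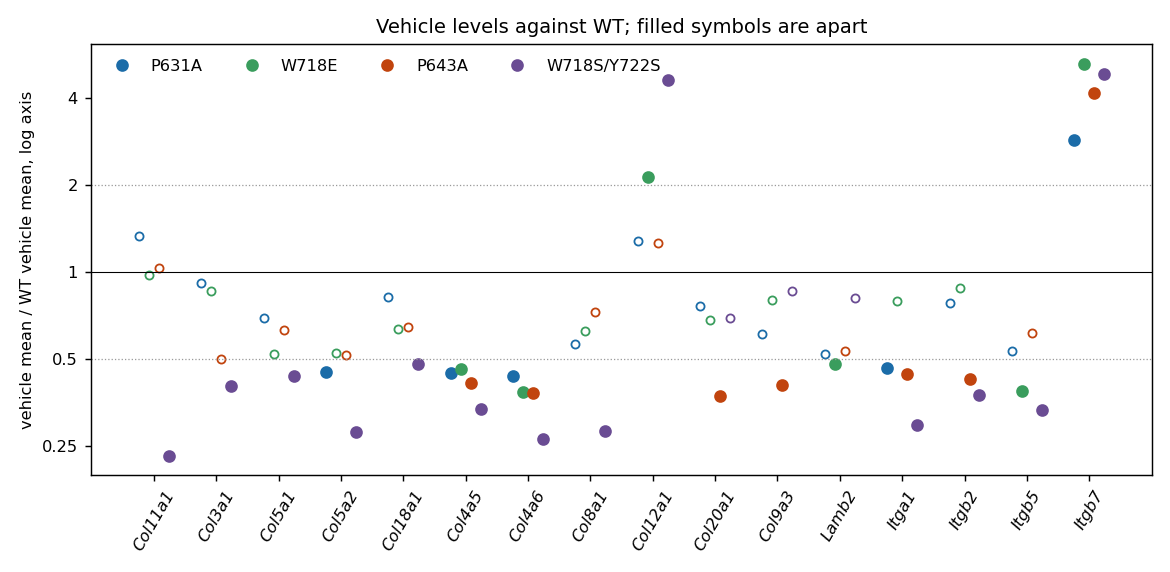
Vehicle mean in each mutant line divided by the WT vehicle mean (log axis) for members apart from WT in at least 1 line, with 2 members left out (Itga8 for its low counts, and 1 not reported here); filled symbols mark libraries that do not overlap at a difference of at least 2-fold. Col4a5 and Col4a6 are lower than WT in every mutant line (26.4% to 46.4% of WT) and Itgb7 is higher in every one.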

How the data were processed

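RNA-seq was made from total RNA with the TruSeq Stranded Total RNA kit, per the labels' protocols. Per the submitters' processing notes, cutadapt, STAR 2.7.0f, HOMER 4.10.4 and mm10 were used. Per the file headers, raw exon counts of 1 RefSeq transcript per gene were made without a stated strand option, and each line's vehicle and Dex libraries were normalised together without pooling. The authors deposited log2 values per library, log2 fold changes, p-values, adjusted p-values and transcript lengths for each line. The log2 values of low genes are shrunken towards the gene's mean, so read counts were recovered by inverting that shrinkage. Between 99.994% and 100% of values of genes with means under 100 came out within 0.1 of a whole read, and 97.7% to 99.9% at means of 100 to 1000. No count-model test was run, because the deposited unit is log2.

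Within a line, limma 3.58.1 (R 4.3.3, eBayes with a variance trend) compared Dex with vehicle on the deposited log2 values over all tested genes, with Benjamini-Hochberg adjustment and a threshold of 0.05. Differences from WT were fitted with limma on log2 of normalised recovered counts plus 1, the scale of every printed level, change and SE. Recovery and fits were tested on simulated data. Alternatives were the other scale, filters of 30 or none, no trend, a pseudocount of 5, joint size factors, the authors' adjusted p, a replicate block and each library left out. No 2 libraries agreed within sampling noise (lowest chi-square per gene 1.3), so none were merged and each counted as 1 replicate. That does not show that they came from separate cultures. Some pairs were close, with 1.34 for WT Dex replicates 2 and 3 and 1.32 for W718S/Y722S vehicle replicates 2 and 3. Among W718S/Y722S Dex libraries, replicates 2 and 3 had 1.3 and replicates 4 and 5 had 1.48. Those are the Dex libraries left in that line when Dex replicate 1 is omitted. The WT vehicle pairs lay at 2.69 to 3.33. If close pairs shared a culture, the p-values would be too small.

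The members, the 3 gene lists and the markers were chosen with earlier results of these data known. Named members are those called in any line or difference, the 3 highest per kb in each structural group in WT, the 5 uncalled members with the largest change in WT, those at least 4-fold apart from WT in vehicle, and their chain partners. In the lists, called genes are named, at most 6 per list and line. Other members apart from WT in vehicle, those whose call depended on 1 library, and neighbours of Itga10 and Itga5 were named after their values were seen. Promoter sequences are RefSeq's. Intervals are 95% intervals of the fits. Values of some single genes are not reported here, though counts include them.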

Additional observations from a re-analysis of the deposited data

Results flagged for a closer look

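Of 62 groups of 5 W718S/Y722S libraries (31 members, vehicle and Dex each), 14 had a library farther from the rest than Dixon's 95% value allows, and chance flags about 1 in 20 groups. Dex replicate 1 was the library in 10 of the 14. It was high for Col1a2 (41506 normalised reads against 32311 to 33759 in the others), Col5a1 (3870 against 3154 to 3287), Col5a2 (8206 against 6594 to 6959) and Itga3 (7639 against 6905 to 7029). It was low for Col4a1 (21513 against 27728 to 29151), Col4a2 (9563 against 12101 to 13076), Col6a1 (4214 against 5766 to 5966), Col6a2 (1323 against 1850 to 1900), Itga6 (3866 against 4529 to 4725) and Lamb2 (3284 against 3937 to 4105). Vehicle replicate 4 was low for Lama5 (2311 against 2724 to 2892) and Lamc1 (8088 against 8919 to 9105). Vehicle replicate 1 was high for Col11a1 (19.3 against 10.3 to 10.5) and vehicle replicate 2 for Itga2 (13.6 against 7.73 to 8.74).

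Differences in the Dex response between a mutant line and WT passed limma's adjusted p of 0.05 for Itga10 in P631A (-1.55), W718E (-1.78) and W718S/Y722S (-1.36) and for Itga5 in P643A (0.24, on the log2 scale). All 4 share the WT libraries.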

How the results depend on the processing

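Leaving out 1 library gave 2 to 10 members called in WT, 0 to 2 in P631A, 0 to 1 in W718E, 2 to 3 in P643A and 2 to 9 in W718S/Y722S. For differences from WT it gave 1 to 3 in P631A, 1 in each omission in W718E and W718S/Y722S, and 1 to 2 in P643A. For vehicle levels it gave 5 to 8 members apart in P631A, 7 to 10 in W718E, 6 to 9 in P643A and 13 in each omission in W718S/Y722S. A 1.5-fold limit gave 14, 18, 20 and 22 in the same order. Without a variance trend P631A had 0 members called, P643A had 2 (Itga3 lost) and W718S/Y722S had 3 (Col18a1 added). By the adjusted p of the authors' deposited table W718E had 1 and W718S/Y722S had 3 (Col18a1 added). On the deposited values the differences from WT had 2 members in P631A and 2 in P643A. Same-numbered vehicle and Dex libraries did not deviate together in every pair (r of -0.42 to 0.45 over the lines). In W718E r was 0.03, 0.37 and 0.45 for replicates 1, 2 and 3, and in P643A 0.13, 0.08 and 0.03. In P631A it was -0.42, -0.13 and -0.24. The main fits left the replicate number out, and whether it marks a pairing in some lines is not settled. The replicate block gave 3 members in WT (Col5a1 added, lower), 0 in P631A, 2 in W718E (Itga10 and Itga5, with 288 in place of 66 calls over all genes), 4 in P643A (Col6a1 added, higher) and 2 in W718S/Y722S. Under it Tns1, Pxn and Zyx were also called in W718E. With the block on recovered counts, chosen after seeing the data, P631A had 0 and W718E had 2. Signs reversed without WT Dex replicate 1 for Lama5 and Col6a3. On the deposited scale the omissions gave -0.0726 to 0.0566 for Lama5 and -0.0867 to 0.0759 for Col6a3, the negative ends without that library (limma adjusted p = 0.0236 and 0.0327). They also reversed on the deposited values for the differences in P643A of Tns1 (-0.27, limma adjusted p 0.000672) and Lims2 (-0.0335, 0.11). Of the counts, 155 alternatives stayed within 1.5 times the reported value and 20 did not. The causes of these shifts were not tested. Low members limit the precision, and changes of genes under about 20 reads have wide intervals.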
